A study of Mus musculus with 6 samples.

Results

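The genes described are the 6 mouse IgG Fc receptor genes Fcgr1, Fcgr2b, Fcgr3, Fcgr4, Fcer1g and Fcgrt. They were taken by symbol from a count table of 55493 genes, and all 6 were present and passed the filter on low counts that left 18210 genes for testing. The libraries are RNA of microglia, the brain's resident macrophages, sorted as CD45-low and CD11b-positive cells from male mice carrying both the ILT Telo Tg transgene, which holds human LILR genes, and the 5XFAD amyloid transgenes. From 4 months of age the mice received an intraperitoneal antibody at 60 mg/kg each week, 8 injections in all. The 3 anti-LILRB4 libraries came from mice given the Fc-mutant antibody ZM3.1 against human LILRB4 (ILT3), an inhibitory receptor of myeloid cells, and the 3 control libraries from mice given the Fc-mutant antibody 27D6, labelled Ctrl IgG2a. Every group therefore carried both transgenes and an Fc-mutant antibody, and there was no group without antibody. The labels do not say which Fc mutation was used, or whether each library is a separate mouse, so the spread behind each p-value may be technical. In sorted bulk RNA, fewer cells of a type and less RNA per cell cannot be told apart.

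IgG Fc receptors let myeloid cells sense and take up antibody-coated material. In the mouse, FcγRI (Fcgr1, high affinity), FcγRIII (Fcgr3) and FcγRIV (Fcgr4) are activating and signal through the common gamma chain, encoded by Fcer1g, whose cytoplasmic tail holds an ITAM, a tyrosine motif that recruits the kinase Syk. FcγRIIb (Fcgr2b) is inhibitory and holds an ITIM, a tyrosine motif that recruits the inositol phosphatase SHIP1. FcRn (Fcgrt) pairs with beta-2-microglobulin and returns IgG from endosomes to the cell surface. In microglia, Fc receptors are known for the uptake of antibody-bound amyloid.

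The codons of both signalling motifs are shown first because the activating chain and the inhibitory receptor are the members compared below. Sequences are GENCODE M21 transcripts on GRCm38 (Fcer1g and Fcgr2b both lie on chromosome 1, minus strand), read from the coding strand, and capitals mark the codons of the motif.
Fcer1g: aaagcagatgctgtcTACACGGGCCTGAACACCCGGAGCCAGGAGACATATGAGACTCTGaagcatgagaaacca
Fcgr2b: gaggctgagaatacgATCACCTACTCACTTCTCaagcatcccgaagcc
The Fcer1g stretch covers coding bases 178 to 252 and the Fcgr2b stretch coding bases 934 to 981. A translated search for the ITAM pattern found 1 match over the 6 members, in Fcer1g. The ITIM pattern is looser and also matched 3 times in Fcgr1 and once each in Fcgr4, Fcer1g and Fcgrt, and a match alone does not mark a signalling site.

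Fcgr2b and Fcgr3 are near copies outside their tails, which bears on how reads are split between them. Their coding sequences were identical at 662 of 784 aligned bases (84.4%), against 59.7% to 68.8% for every other pair of members. The 180 bases in which they are most alike, with the differing base in capitals, were as follows.
Fcgr2b: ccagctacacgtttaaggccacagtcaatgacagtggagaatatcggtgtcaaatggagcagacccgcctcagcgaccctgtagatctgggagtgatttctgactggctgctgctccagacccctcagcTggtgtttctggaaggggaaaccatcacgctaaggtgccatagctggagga
Fcgr3: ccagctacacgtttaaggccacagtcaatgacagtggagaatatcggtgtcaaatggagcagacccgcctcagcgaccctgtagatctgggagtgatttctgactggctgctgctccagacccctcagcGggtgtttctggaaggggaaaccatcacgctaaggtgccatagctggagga
These stretches begin at coding base 278 of Fcgr2b and 263 of Fcgr3, and differ at 1 base. The longest identical run was 129 bases. Of all 50-base words of Fcgr3 transcripts 9.58% (166 of 1733) also occurred in Fcgr2b, and of its 150-base words, the length of a read, 0 did. Of the 150-base words of Fcgr2b transcripts 1.92% (114 of 5932) occurred in another gene, and 0 in another member. How shorter or inexact matches to both Fcgr2b and Fcgr3 were counted is not given in the sources used here, so the split of such reads is uncertain. Gene counts also do not separate the isoforms of Fcgr2b. Fcgr2b also shares 155 exon bases (2.68%) with the antisense gene Gm38204, and the library kit named in the labels does not mark strand.

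Fcgr2b (ENSMUSG00000026656), Fcgr3 (ENSMUSG00000059498), Fcgr4 (ENSMUSG00000059089) and Fcer1g (ENSMUSG00000058715) lie within 275.7 kb of chromosome 1. On GRCm38 their coordinates are 170958617 to 170976547 (minus strand), 171051174 to 171064935 (minus), 171018920 to 171029761 (plus) and 171229572 to 171234365 (minus). Fcgr1 (ENSMUSG00000015947) lies on chromosome 3 at 96282909 to 96293969 and Fcgrt (ENSMUSG00000003420) on chromosome 7 at 45092990 to 45103851, both on the minus strand.

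The libraries held 41948140 to 56345514 counts in the anti-LILRB4 group and 39805118 to 44987032 in controls. The microglial marker P2ry12 was at 11255 to 13401 CPM (read counts over the TMM library size, scaled to a common depth) in anti-LILRB4 libraries and 12949 to 13653 CPM in controls. Tmem119, another microglial marker, was at 3954 to 4415 CPM in anti-LILRB4 libraries and 3483 to 4002 CPM in controls. The microglial markers Cx3cr1, Sall1, Aif1 and Itgam also overlapped between groups. Csf1r, the receptor that microglia need to survive, was at 3010 to 5328 CPM in anti-LILRB4 libraries and 1875 to 2892 CPM in controls, and the lectin Siglech was at 747 to 785 CPM in anti-LILRB4 libraries and 697 to 742 CPM in controls, both without overlap and uncalled by edgeR. The log2 fold changes of Csf1r, Sall1 and Siglech were 0.67, 0.49 and 0.11. Neutrophil markers, whose cells also carry Fc receptors, summed to 135, 1131 and 219 CPM in anti-LILRB4 libraries 1, 2 and 3, and to 1338, 572 and 611 CPM in controls 1, 2 and 3. Monocyte markers summed to 28.3 to 82.9 CPM in anti-LILRB4 libraries and 47.8 to 103 CPM in controls. Border-associated macrophage markers summed to 50.2, 50.0 and 81.7 CPM in anti-LILRB4 libraries 1, 2 and 3. In controls 1, 2 and 3 they summed to 57.7, 44.2 and 50.9 CPM. Of 8 such markers tested, 7 log2 fold changes were positive and 1 negative, with 0 called. NK and T cell markers stayed at or below 4.08 CPM in anti-LILRB4 libraries and 4.32 CPM in controls, mast cell and basophil markers at or below 3.17 and 1.96 CPM. The human transgene receptor LILRB4 was at 3297 CPM in anti-LILRB4 library 3, against 850.4 and 1304 CPM in anti-LILRB4 libraries 1 and 2 and 1029, 1031 and 1078 CPM in controls, so that library stands apart. B and plasma cell markers summed to 596 to 699 CPM in anti-LILRB4 libraries and 454 to 544 CPM in controls. Most of each sum was Ighm, at 495, 549 and 500 CPM in anti-LILRB4 libraries and 398, 401 and 413 CPM in controls, in library order. Among the 8 tested, only Ighm separated the groups, and only Ighm was called by DESeq2 (adjusted p 0.0314). It stayed uncalled by edgeR (adjusted p 0.426). Log2 fold changes were positive for 6 of the 8 and negative for 2, Ms4a1 (-0.50) and Pax5 (-1.53). A difference in B cell content was not tested.

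The Fc receptor genes were ranked alike in every library. Per kilobase of merged exons the order was Fcer1g, Fcgr3, Fcgr1, Fcgrt, Fcgr2b and Fcgr4 in all 6 libraries. Fcer1g stood at 2453 ± 108 CPM per kb in anti-LILRB4 libraries and 2927 ± 291 CPM per kb in controls (SD, n = 3 each), between rank 11 and rank 17 of 12215 protein-coding genes. Fcgr3 was the most abundant receptor, at 750.0 ± 18.5 CPM per kb in anti-LILRB4 libraries and 698 ± 54.5 in controls (rank 50 to 60). Fcgr1 stood at 240 ± 22.4 CPM per kb in anti-LILRB4 libraries and 259 ± 34.2 in controls. Fcgrt had 88.3 ± 14.4 CPM per kb in anti-LILRB4 libraries and 78.3 ± 4.12 in controls. Inhibitory Fcgr2b followed at 46.2 ± 2.83 CPM per kb in anti-LILRB4 libraries and 50.5 ± 4.69 in controls. Fcgr4 was the lowest member, at 13.4 ± 2.13 CPM per kb in anti-LILRB4 libraries and 13.5 ± 3.28 in controls. The ranges of neighbours in this order did not overlap across the 6 libraries on this length. With the longest transcript as length, the order within each library was the same, but the ranges of Fcgrt and Fcgr2b overlapped.

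**Figure D1:**
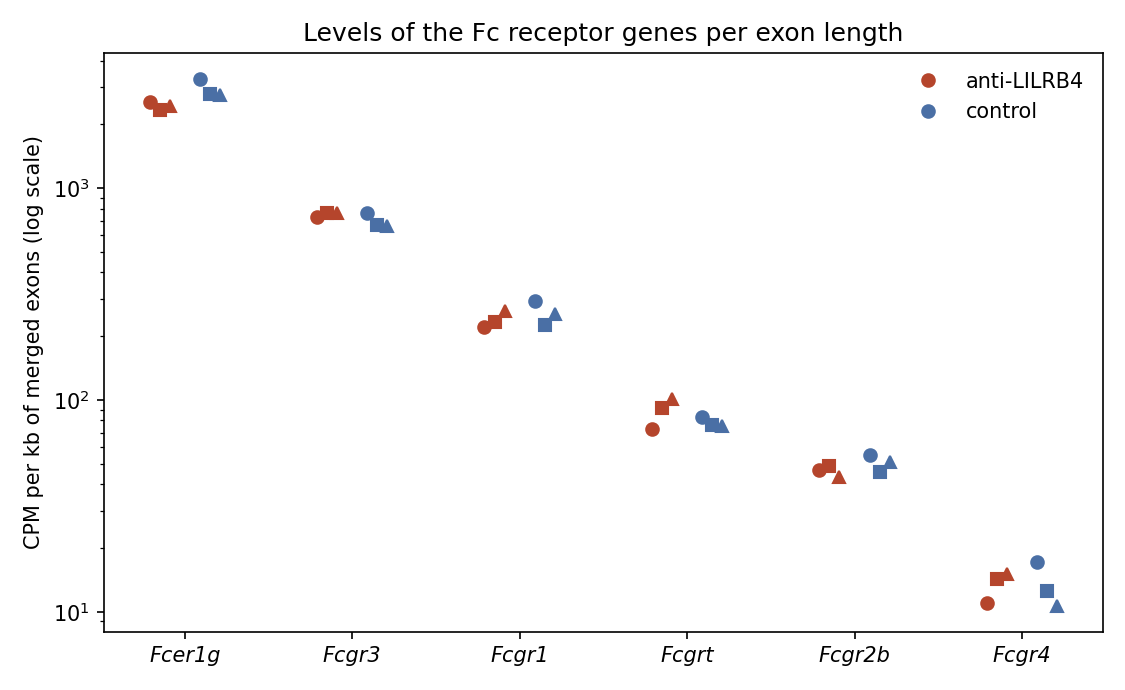
Levels of the 6 genes in CPM per kilobase of merged exons on a log axis, 1 point per library (circle, square and triangle for libraries 1, 2 and 3), anti-LILRB4 in red and control in blue. Fcer1g is the highest and Fcgr4 the lowest in all 6 libraries, at a mean over libraries of 2690 and 13.4 CPM per kb.

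The comparison of antibodies asks how the antibody against LILRB4 changed the microglial transcriptome. No Fc receptor gene passed the threshold: edgeR's quasi-likelihood test called 0 of the 6 members at a Benjamini-Hochberg adjusted p of 0.05, beside 0 of 18210 genes (0%). DESeq2 on the same counts also called 0 members, beside 1.10% of genes, and limma-voom called 0 members and 0 genes. The gamma chain gene Fcer1g was the exception in pattern, with all anti-LILRB4 libraries below all controls. It was the only member with an unadjusted p under 0.05, which 8.03% of all genes had. Absolute log2 fold changes of the members had a median of 0.12, against 0.23 over all tested genes. The tested genes were not matched to the members in level, so these medians do not compare genes of like abundance.

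Fcer1g, the ITAM chain without which the activating receptors neither reach the surface in normal amounts nor signal, was at 2238, 2050 and 2145 CPM in anti-LILRB4 libraries 1, 2 and 3, against 2851, 2425 and 2398 CPM in controls 1, 2 and 3. Every anti-LILRB4 library lay below every control. Groups were separated in this direction in 7.79% of all genes, and in either direction in 14.7%. The log2 fold change was -0.25 (SE 0.09, 95% interval -0.45 to -0.06), with an unadjusted p of 0.0158 and an adjusted p of 0.521 in edgeR. The adjusted p was 0.332 in DESeq2 and lay between 0.332 and 0.756 over the 15 fits made. Control library 1 was the highest of all 6, and without it the log2 fold change was -0.17. That library also had the highest neutrophil marker sum, and anti-LILRB4 libraries 1 and 3 the lowest. Without anti-LILRB4 library 3, which stands apart in LILRB4, it was -0.26. Anti-LILRB4 library 2 had a neutrophil marker sum above controls 2 and 3 and the lowest Fcer1g. Single markers differed from that sum. Of 10 neutrophil markers tested, 8 log2 fold changes were negative and 2 positive. Retnlg and Mmp8 were lower in all anti-LILRB4 libraries than in any control (log2 fold change -4.12 and -2.65, edgeR adjusted p 0.426 and 0.525). In anti-LILRB4 library 2 they were at 0.473 and 1.03 CPM. The part of neutrophil RNA in the difference was not tested.

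Fcgr3, the most abundant IgG-binding receptor here, went the other way in its mean. It was at 1265, 1318 and 1323 CPM in anti-LILRB4 libraries 1, 2 and 3 and at 1320, 1165 and 1149 CPM in controls 1, 2 and 3. The groups overlapped through control 1, while the other controls lay below all anti-LILRB4 libraries. The log2 fold change was 0.10 (SE 0.08, 95% interval -0.09 to 0.29, edgeR adjusted p 0.798).

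Fcgr1, the high-affinity receptor, was at 571, 605 and 684 CPM in anti-LILRB4 libraries and 762, 585 and 662 CPM in controls, in library order. The groups overlapped, with control 1 highest and anti-LILRB4 library 1 lowest. The log2 fold change was -0.11 (SE 0.12, 95% interval -0.37 to 0.15, edgeR adjusted p 0.846), and it was -0.01 without control library 1.

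Fcgr4, a receptor for IgG2a and IgG2b, had 623, 1019 and 777 counts in anti-LILRB4 libraries (13.8, 17.9 and 18.9 CPM), against 949, 638 and 590 counts in controls (21.5, 15.8 and 13.4 CPM). The control range enclosed the anti-LILRB4 range. It varied most within controls (coefficient of variation 24.4%, and 15.9% in anti-LILRB4 libraries), and its log2 fold change was -0.00 with a 95% interval of -0.50 to 0.49 (edgeR adjusted p 0.997). The sign of this value changed with the processing.

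Fcgr2b, the inhibitory receptor, was at 271, 282 and 250.0 CPM in anti-LILRB4 libraries and 319, 265 and 294 CPM in controls. The groups overlapped, since control 2 lay below 2 anti-LILRB4 libraries. The log2 fold change was -0.13 (SE 0.11, 95% interval -0.36 to 0.11, edgeR adjusted p 0.802).

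Fcgrt, the IgG salvage receptor, was at 153, 192 and 212 CPM in anti-LILRB4 libraries and 175, 160 and 159 CPM in controls. Anti-LILRB4 library 1 was the lowest of all 6 and libraries 2 and 3 were the highest. The log2 fold change was 0.17 (SE 0.13, 95% interval -0.12 to 0.47, edgeR adjusted p 0.782), and leaving out anti-LILRB4 library 1 raised it to 0.30, while leaving out library 3 lowered it to 0.07. Its partner chain B2m, beta-2-microglobulin, was at 2039 ± 177 CPM in anti-LILRB4 libraries and 2462 ± 484 CPM in controls (SD, n = 3 each), which overlapped (log2 fold change -0.27, edgeR adjusted p 0.640).

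**Figure D2:**
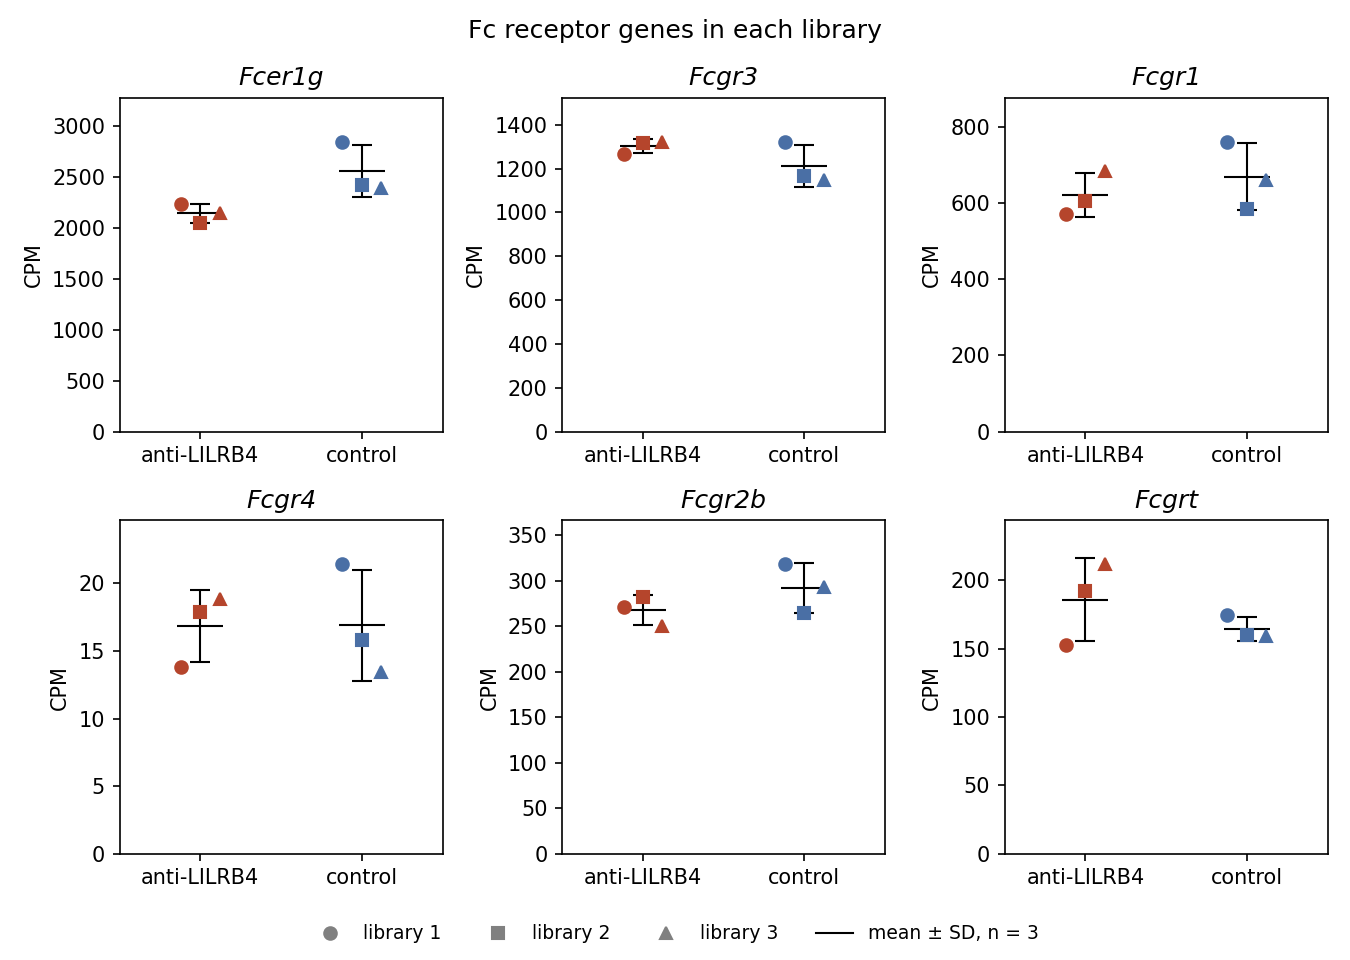
CPM of each gene by library (circle, square and triangle for libraries 1, 2 and 3) with mean ± SD of 3 libraries, anti-LILRB4 left and control right. Only in the Fcer1g panel do the groups not overlap, and control library 1 is the highest control in all 6 panels.

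**Figure D3:**
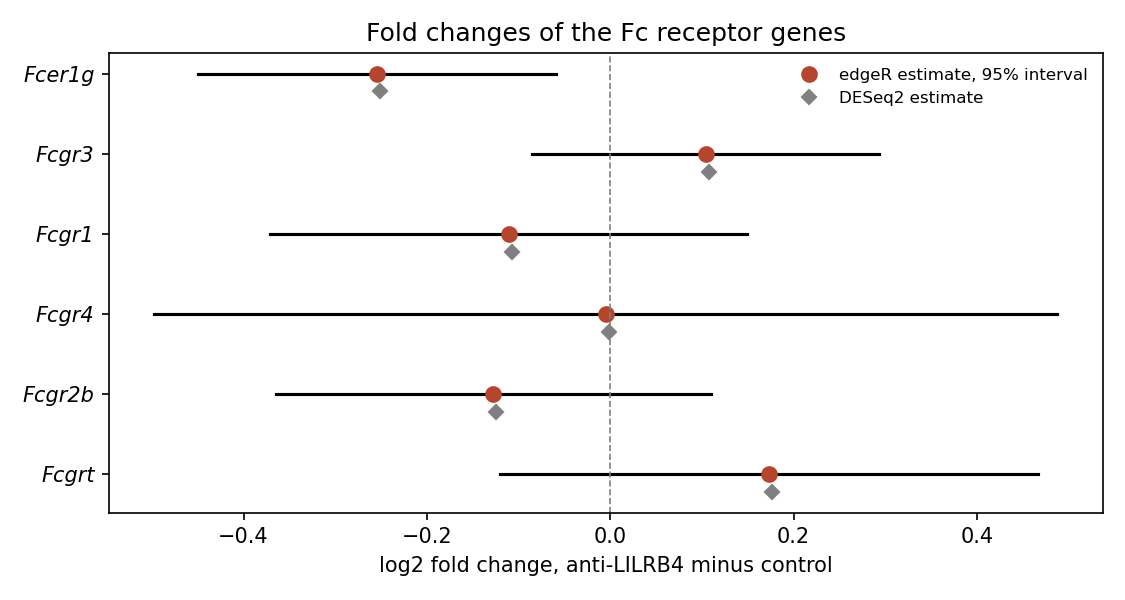
Log2 fold change, anti-LILRB4 minus control, of each gene with the 95% interval of edgeR and the DESeq2 estimate beside it. The Fcer1g interval, -0.45 to -0.06, is the only one that does not cross 0.

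Control library 1 was the highest control for 6 of 6 members. In the anti-LILRB4 group, library 3 was highest for 4 members and library 1 lowest for 4. The 6 members together took 4511, 4465 and 4633 CPM in anti-LILRB4 libraries 1, 2 and 3, against 5448, 4616 and 4675 CPM in controls 1, 2 and 3, and these sums overlapped. In the authors' deposited table the log2 fold changes were -0.25 for Fcer1g, 0.11 for Fcgr3, -0.11 for Fcgr1, -0.00 for Fcgr4, -0.12 for Fcgr2b and 0.18 for Fcgrt. The authors' deposited table gives Fcer1g a p-value of 0.0232 and an adjusted p of 0.348, the smallest of the 6.

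Ratios within a library do not depend on library size, so the balance between members was compared as well. Fcer1g over the sum of Fcgr1, Fcgr3 and Fcgr4 CPM was 1.21, 1.06 and 1.06 in anti-LILRB4 libraries 1, 2 and 3, against 1.35, 1.37 and 1.31 in controls 1, 2 and 3. All anti-LILRB4 libraries lay below all controls. The mean log2 ratio was 0.15 ± 0.11 in anti-LILRB4 libraries and 0.43 ± 0.03 in controls (SD, n = 3 each), a difference of -0.29 (exact two-sided permutation p = 0.1, the smallest that 3 against 3 libraries allow, and 0.34 adjusted over the 17 ratios). Such a separation was common, at 17.0% of the ratios of 2 protein-coding genes described below. The difference was between -0.35 and -0.25 when any 1 library was left out.

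Activating receptors over the inhibitory receptor (Fcgr1, Fcgr3 and Fcgr4 over Fcgr2b) came to 6.83, 6.88 and 8.11 in anti-LILRB4 libraries, against 6.60, 6.67 and 6.21 in controls. The groups did not overlap, as in 17.0% of the ratios of 2 protein-coding genes described below, and anti-LILRB4 libraries 1 and 2 lay close to the controls. The mean log2 ratio was 2.86 ± 0.14 in anti-LILRB4 libraries and 2.70 ± 0.06 in controls (SD, n = 3 each), a difference of 0.16 (exact two-sided permutation p = 0.1, again the smallest possible, adjusted 0.34). Without anti-LILRB4 library 3 the difference was 0.08.

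Of the 15 pairs of members, the log2 ratio separated the groups in 3, namely Fcer1g to Fcgr3 and Fcer1g to Fcgrt, both lower in anti-LILRB4 libraries, and Fcgr3 to Fcgr2b, which was higher. Among all pairs of 6376 protein-coding genes with a mean log2 CPM of at least 4, 17.0% separated the groups, so 3 of 15 is near the background. Fcer1g to Fcgr3 was 1.77, 1.56 and 1.62 in anti-LILRB4 libraries and 2.16, 2.08 and 2.09 in controls. Fcgr3 to Fcgr2b, the pair with shared sequence, was 4.67, 4.67 and 5.29 in anti-LILRB4 libraries and 4.14, 4.40 and 3.91 in controls. Adjusted over all 17 ratios the smallest exact permutation p was 0.34. As a share of the members' summed CPM, Fcer1g took 47.3 ± 2.03% in anti-LILRB4 libraries and 52.1 ± 0.669% in controls, and Fcgr3 28.7 ± 0.746% in anti-LILRB4 libraries and 24.7 ± 0.510% in controls (SD, n = 3 each).

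**Figure D4:**
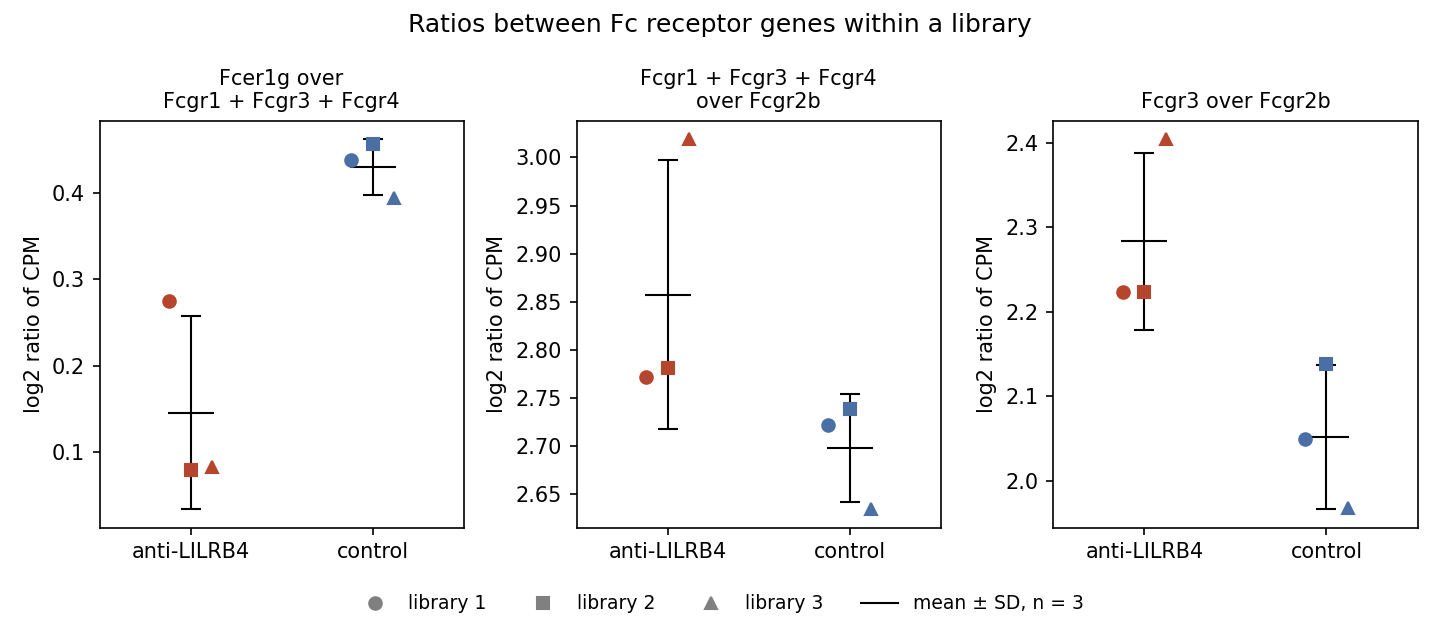
Log2 ratios of CPM within each library (circle, square and triangle for libraries 1, 2 and 3) with mean ± SD of 3 libraries, anti-LILRB4 left and control right, on axes that do not start at 0. The Fcer1g ratio is lower in all 3 anti-LILRB4 libraries than in any control, and both ratios over Fcgr2b are higher.

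Genes that act below Fc gamma receptors tended to have higher means in anti-LILRB4 libraries, and none was called. Of 47 listed kinases, adaptors, phospholipases, exchange factors and phosphatases 46 were tested. The list was chosen with earlier results of these data known, and it was not tested as a set. edgeR, DESeq2 and limma-voom called 0 in either direction. In the list 32 log2 fold changes were positive and 14 negative, beside 8949 positive and 9261 negative over all genes tested. Their median was 0.17 against -0.01 over all genes tested. Without control library 1 the list's median was 0.11. The means of the microglial markers Csf1r, Sall1 and Siglech were also higher in anti-LILRB4 libraries, and their part in this was not tested. All anti-LILRB4 libraries lay above all controls for 9 of the 46 and below for 0, where 6.94% of all genes lay above and 7.79% below. At an unadjusted p under 0.05 in edgeR 8 were higher and 0 lower, where 4.12% of all genes were higher and 3.91% lower.

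Syk, the kinase that docks on the ITAM of Fcer1g, was at 65.6, 77.4 and 64.6 CPM in anti-LILRB4 libraries and 33.9, 61.3 and 49.4 CPM in controls, without overlap. Its log2 fold change was 0.52 (SE 0.20, edgeR adjusted p 0.559). Inpp5d, which encodes the SHIP1 phosphatase that acts at the ITIM of Fcgr2b, was at 352, 491 and 357 CPM in anti-LILRB4 libraries and 220, 312 and 296 CPM in controls. Its log2 fold change was 0.53 (SE 0.17, edgeR adjusted p 0.506, and 0.00512 with no filter on low counts). The fit with no filter was the only edgeR fit that called any gene, 183 higher and 117 lower of 35404. The activating kinase and the inhibitory phosphatase both had higher means in anti-LILRB4 libraries.

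Gab2, a scaffold adaptor, had a log2 fold change of 0.70, the adaptor Lcp2 (SLP-76) 0.37, the exchange factor Vav1 0.36 and the GTPase Rac2 0.24, with edgeR adjusted p between 0.506 and 0.566. The groups did not overlap for any of these 4. The 4 were named because they, with Syk and Inpp5d, had the 6 smallest edgeR p-values of the list. That choice favours groups without overlap, which 6.94% of all genes had in this direction. Control library 1 was the lowest of all 6 libraries for each of the 4 and for Syk and Inpp5d. Lyn, a Src-family kinase that phosphorylates both motifs, was at 620.1 ± 8.90 CPM in anti-LILRB4 libraries and 611 ± 23.8 CPM in controls (SD, n = 3 each), a log2 fold change of 0.02. Ptpn6, the phosphatase SHP-1, and Plcg2, a phospholipase of ITAM signalling, had log2 fold changes of 0.18 and 0.45 with overlapping groups.

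**Figure D5:**
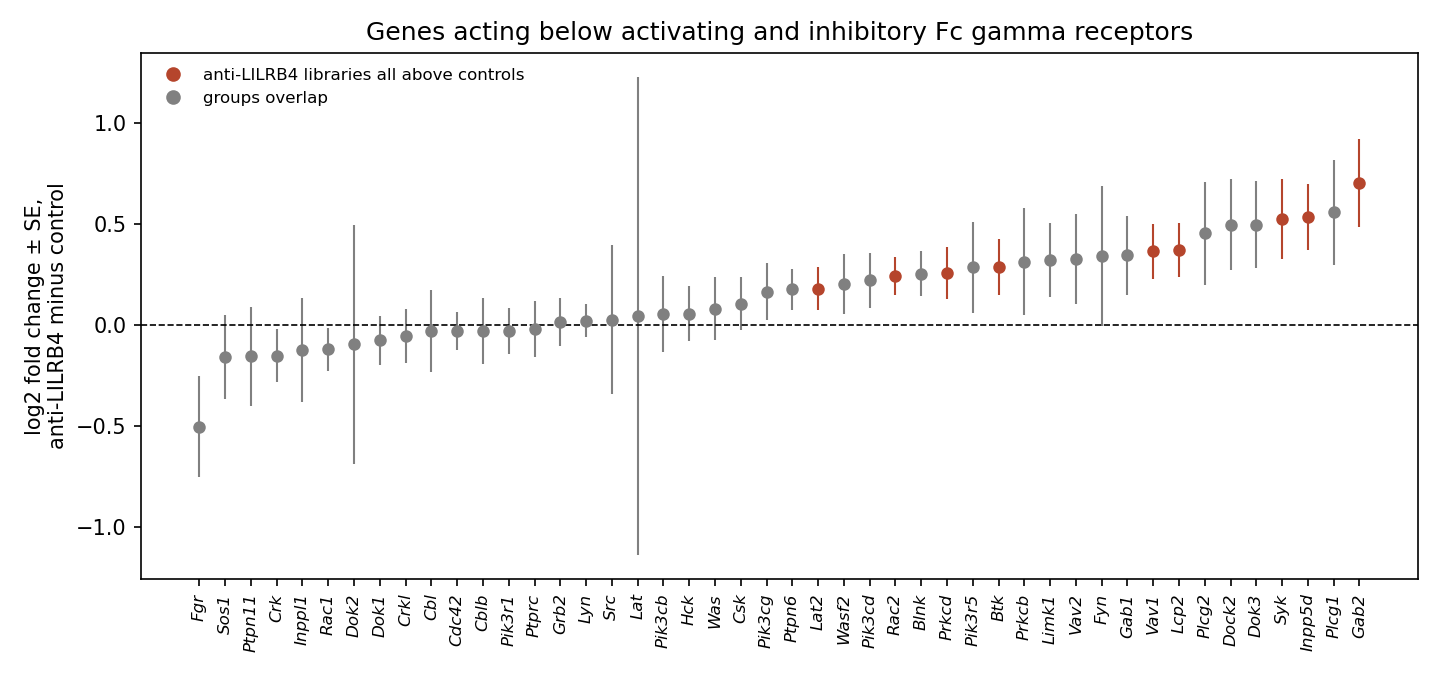
Log2 fold change ± SE, anti-LILRB4 minus control, of 46 genes below Fc gamma receptors, sorted by value. The 9 genes in red, whose anti-LILRB4 libraries all lie above the controls, include Syk and Inpp5d, and none passed the edgeR threshold.

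Other receptors that use the Fcer1g chain were mostly absent from the table by symbol or below the filter. Of the 20 mouse genes listed 14 were in the table and 5 were tested, with 0 called. Lilra5, a leukocyte immunoglobulin-like receptor, was at 38.7 ± 4.99 CPM in anti-LILRB4 libraries and 45.8 ± 5.30 CPM in controls. Clec4a1, a C-type lectin receptor, was at 20.0 ± 1.16 CPM in anti-LILRB4 libraries and 19.9 ± 0.900 CPM in controls. Clec4n (Dectin-2), which binds fungal mannans, was at 0.927 ± 0.494 CPM in anti-LILRB4 libraries and 2.58 ± 1.56 CPM in controls (SD, n = 3 each), with a log2 fold change of -1.47, overlapping groups and an edgeR adjusted p of 0.560.

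The transgene adds human receptors that are known to pair with this chain. LILRA2 was at 1159, 1225 and 2261 CPM in anti-LILRB4 libraries 1, 2 and 3 and at 1904, 1835 and 1861 CPM in controls. LILRA1 was at 177, 207 and 546 CPM in anti-LILRB4 libraries and 200, 266 and 249 CPM in controls. Anti-LILRB4 library 3 stood far above the rest for LILRA1, as for LILRB4. For LILRA2 it was the highest library, and anti-LILRB4 libraries 1 and 2 lay below all controls. Fcer1g in that library, 2145 CPM, lay between the other anti-LILRB4 libraries. The log2 fold changes of LILRA2 and LILRA1 were -0.27 and 0.38 (edgeR adjusted p 0.792 and 0.822). The median over the 4 human receptors tested, of 12 listed, was 0.50, and -0.28 without anti-LILRB4 library 3.

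Among other Fc and Fc-like receptors, 7 of 13 were tested and 0 were called. Fcrls, a microglial Fc receptor-like scavenger receptor, was at 1943, 2998 and 2443 CPM in anti-LILRB4 libraries and 1695, 1826 and 1830 CPM in controls. The groups did not overlap, and its log2 fold change was 0.46 (SE 0.14, edgeR adjusted p 0.475). With no filter on low counts, the only edgeR fit that called any gene, its adjusted p was 0.00766. Fcrl1 was at 138 ± 11.7 CPM in anti-LILRB4 libraries and 141 ± 12.1 CPM in controls (SD, n = 3 each). Trim21, a cytosolic antibody receptor, had a log2 fold change of -0.05. The complement C1q genes, whose product binds the Fc part of IgG, were C1qa, C1qb and C1qc, with log2 fold changes of 0.01, 0.38 and 0.08, overlapping groups and edgeR adjusted p of 0.978, 0.506 and 0.853. With no filter on low counts that of C1qb was 0.0459.

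Genes whose profile over the 6 libraries was most like each member's were found by the root mean square difference of centred log2 CPM among 4273 protein-coding genes with a mean log2 CPM of at least 5. The nearest to Fcer1g were Pak1ip1 and Ndufa12, at 0.017 and 0.027, where Fcer1g itself varied by 0.15 around its mean. For Fcgr3 they were Araf and Npc2 (0.021 and 0.026), for Fcgr1 Naca and Cybc1 (0.031 and 0.034), for Fcgr2b Arf3 and Trmt1l (0.028 and 0.032), for Fcgr4 Ciao1 and Rmc1 (0.071 and 0.082) and for Fcgrt Rpl7a and Mia3 (0.035 and 0.053). These nearest genes were sought among genes other than the members. The closest pair of members, Fcer1g and Fcgr2b, differed by 0.11 and the farthest, Fcer1g and Fcgrt, by 0.27.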

How the data were processed

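The authors deposited whole counts per Ensembl gene for 6 libraries. STAR, Subread, featureCounts, Salmon and DESeq2 1.38.3 appear in the submitters' processing notes, which give them no roles, and no build or annotation for counting is stated there. The authors' own comparison table holds log2 fold changes with errors, a score (fold change over error), p-values raw and adjusted, and a mean normalized signal, with DESeq2's column names per the file headers. Its gene starts match GENCODE M21 (GRCm38) for only 499 of 24797 genes, so its positions are mostly not those of that annotation. All positions, lengths and transcripts here are nonetheless GENCODE M21's, joined by identifier. Levels per kilobase and shared words therefore rest on an annotation that may differ from the one used for counting.

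Repeats of an identifier (287 rows, same counts) were removed. edgeR 4.0.16 (R 4.3.3) was run with filterByExpr (minimum count 10), TMM and quasi-likelihood testing of antibody alone, and p-values were Benjamini-Hochberg adjusted over 18210 genes. An SE is the fold change divided by the root of F. DESeq2 1.42.0 (15378 genes with an adjusted p) and limma 3.58.1 (voom) were alternatives. Log2 CPM used a prior count of 2. No pair of libraries matched within sampling noise. The fit was tested on simulated data with changes larger than those of the members, so that run does not bear on changes of the members' size. Figures used matplotlib 3.10.9.

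The members, gene lists, named genes and markers were chosen with earlier results of these data known. Named were the 6 members, of the signalling list the 6 genes with the smallest p plus Syk, Inpp5d, Lyn, Ptpn6 and Plcg2, of both other receptor lists the 3 genes highest in CPM, B2m and the C1q genes, and the 2 most alike genes per member. Outside this rule, the human LILR genes and the pairwise ratios were added after values were seen.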

Additional observations from a re-analysis of the deposited data

How the results depend on the processing

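Log2 fold changes of Fcgr1, Fcgr2b, Fcgr3, Fcer1g and Fcgrt kept their sign and stayed uncalled under all 14 alternatives. Leaving out each library gave ranges of -0.19 to -0.01 for Fcgr1, -0.19 to -0.06 for Fcgr2b, 0.07 to 0.17 for Fcgr3, -0.30 to -0.17 for Fcer1g and 0.07 to 0.30 for Fcgrt. Fcgr4 turned positive with library size only (0.0077), no filter on low counts (0.0017), the replicate block (0.011) and limma-voom (0.0099), and ranged from -0.15 to 0.20 when libraries were left out; the cause was not tested. Over all genes, 183 were called higher and 117 lower of 35404 tested with no filter on low counts. In that fit LILRB4, whose groups overlapped, had an edgeR adjusted p of 1.4e-08. DESeq2 called 84 higher and 85 lower, against 0 and 0 in the other alternatives, an adjusted p of 0.1 included. With no filter edgeR called 2 genes of the signalling list (Inpp5d and Dock2), 1 other Fc-like receptor (Fcrls), 1 gene of the FcRn partner and complement list (C1qb) and 2 human transgene receptors (LILRB1 and LILRB4); these were named after their values were seen. With the longest transcript as length, mean CPM per kb was 3442 for Fcer1g, 933 for Fcgr3, 98.9 for Fcgrt and 79.0 for Fcgr2b, in the same order in all 6 libraries, though the ranges of Fcgrt and Fcgr2b then overlapped. Both planned ratios kept their sign in every alternative. Same-numbered libraries did not deviate together (correlations 0.014, 0.029 and -0.014), so the numbers were not taken as pairs; with the replicate block 0 genes were called and Fcer1g had a log2 fold change of -0.25 (edgeR adjusted p 0.394), with ratio differences of -0.29 and 0.16. With 3 libraries a group, only the interval of each fold change bounds what could have been missed.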
